A study of Mus musculus with 24 samples.

Results

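CD8+ T cells and CD4+FOXP3+ regulatory T (Treg) cells taken from the same kind of tumour were compared in mice that had received an isotype control antibody. The comparison used every isotype control library of the count table, 4 labelled CD8 and 4 labelled TREG, which are 8 of the 24 libraries of the series. All mice bore tumours of B16F10-OVA, melanoma cells that make the model antigen ovalbumin, and were given 200 µg of antibody 1 day before the tumours were taken. The other 16 libraries came from mice given anti-PD-1 or anti-JAML, an antibody against the junctional adhesion molecule that the gene Jaml encodes. Mouse strain, sex and age are not given in the labels used here. Each library was made with Smart-seq2, a full-length method that amplifies polyadenylated RNA, from fewer than 400 sorted cells. The labels number the libraries of each group but do not say whether each came from its own mouse, so the p-values measure the spread between libraries.

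CD8+ T cells recognise peptides on MHC class I and kill target cells with perforin and granzymes released from granules. Treg cells are held in their identity by the transcription factor Foxp3 and restrain other T cells through CTLA-4, the high-affinity IL-2 receptor, IL-10 and adenosine production. In tumours Treg cells often carry high levels of costimulatory receptors of the TNF receptor family and of the chemokine receptor CCR8, and CD8 cells often carry inhibitory receptors such as PD-1.

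The genes that define the sort matched the labels in all 8 libraries. Levels are CPM values, which express each gene's reads relative to the depth of its library, after trimmed-mean scaling, always for libraries 1 to 4 in that order, and fold changes as log2 of CD8 over Treg ± SE from the edgeR quasi-likelihood fit, with Benjamini-Hochberg adjusted p-values. Cd8a, the alpha chain of the CD8 co-receptor, stood at 1717, 1781, 1681 and 1416 CPM in CD8 and at 0 in each Treg library, and was at least 40946-fold higher in CD8 when the Treg group is set to its limit of 3 counts, which covers counting error only. Cd8b1, its partner chain, stood at 1014, 1039, 1107 and 917 CPM in CD8 and at 47.7, 12.3, 46.2 and 21.00 CPM in Treg (log2 fold change 5.002 ± 0.44, adjusted p = 0.000213). The Treg libraries thus had no Cd8a count but a low Cd8b1 level. Cd4, the co-receptor of helper and regulatory cells, was at 0 in each CD8 library and at 203, 251, 286 and 335 CPM in Treg, at least 4865-fold higher in Treg. Foxp3 was also at 0 in each CD8 library and stood at 60.01, 62.6, 56.00 and 96.6 CPM in Treg, at least 1246-fold higher in Treg, although its exons overlap those of Flicr and Ppp1r3f, whose reads could not be told apart here.

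**Figure D1:**
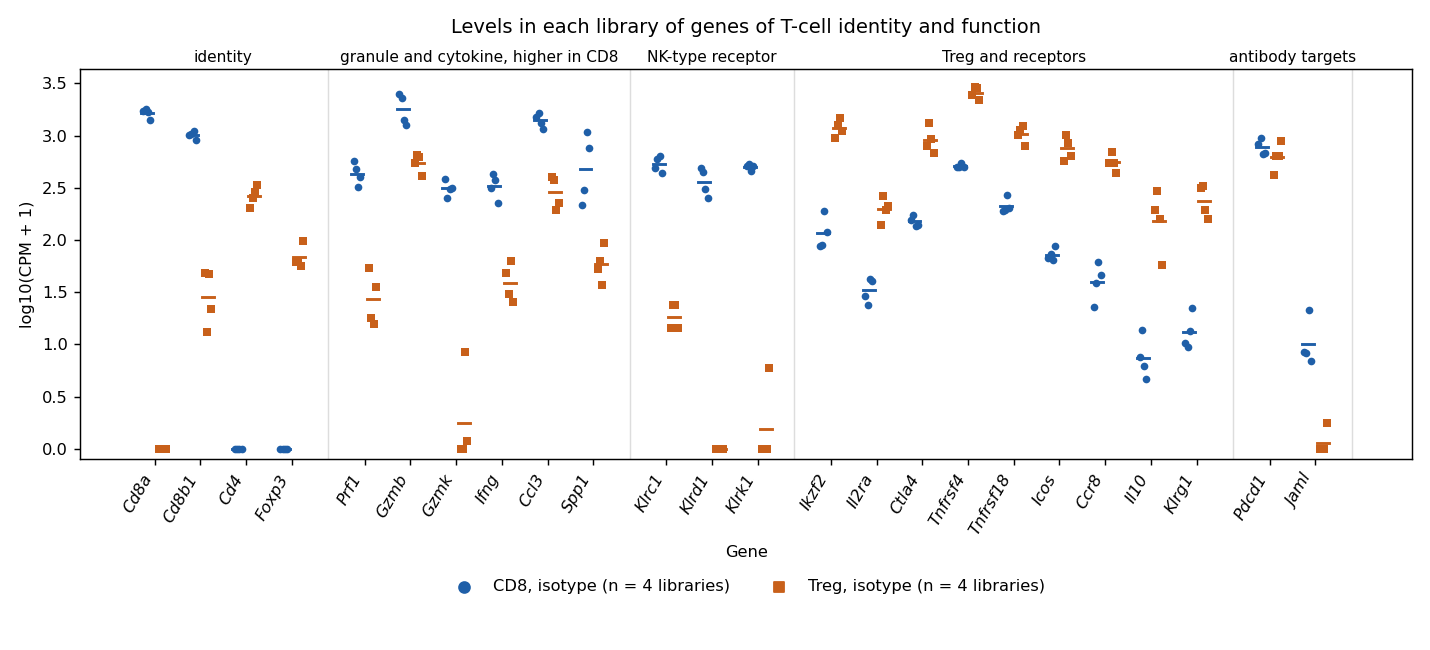
Level of 24 genes in each isotype library, as log10(CPM + 1). Circles are the 4 CD8 libraries, squares the 4 Treg libraries, and short lines the means of the plotted values. Cd8a and Klrd1 lie at 0 in the Treg libraries and Cd4 and Foxp3 at 0 in the CD8 libraries, while the Pdcd1 levels of the groups overlap.

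The libraries held 11727419 to 16977824 counts in CD8 and 13911087 to 22556460 in Treg. The CD8 libraries were more alike (Pearson r of log2 CPM across genes 0.877 to 0.899) than the Treg libraries (0.745 to 0.794). Treg libraries 2 and 3 stood apart from the rest on the second principal component, which held 18.8% of the variance. They lay at its opposite ends, library 2 at -114 and library 3 at 122. Counts that the results lead with are therefore given below without that pair too. Summed T-cell markers ranged from 7565 to 8803 CPM in CD8 and from 7254 to 11142 CPM in Treg. Some markers of B cells (Ms4a1, Pax5, Jchain), of NK cells (Ncr1), of dendritic cells (Flt3) and of macrophages (Csf1r) were at 0 in all 8 libraries, but other markers of each list were not. Summed macrophage and monocyte markers ranged from 16.5 to 55.8 CPM in CD8 and from 19.9 to 103 CPM in Treg. In that list C1qc stood at 0, 0, 3.8 and 0 CPM in CD8 and 4.67, 7.74, 16.5 and 3.94 CPM in Treg, and did not pass the threshold. Summed dendritic cell markers, nearly all Cd74 and MHC class II, ranged from 241 to 969 CPM in CD8 and from 871 to 1908 CPM in Treg. Of these, Cd74 was called higher in Treg. Summed stroma and endothelium markers ranged from 14.4 to 29.2 CPM in CD8 and from 38.5 to 91.9 CPM in Treg, with no overlap. Of these, Pecam1 was called higher in Treg. Summed B and plasma cell markers, nearly all Ighm, the immunoglobulin mu constant gene, ranged from 279 to 353 CPM in CD8 and from 612 to 1125 CPM in Treg, with no overlap. Of the 3 tested, Ighm (log2 fold change -1.29 ± 0.20, adjusted p = 0.00323) and Cd79b (log2 fold change -2.40 ± 0.63, adjusted p = 0.0314), a signalling chain of the B-cell receptor, were higher in Treg. The Cd79b call was lost without any 1 of CD8 libraries 1 to 3 and Treg libraries 2 and 3 (adjusted p = 0.0507 to 0.0918) and without that Treg pair (0.174). The part of these cells in the differences below was not tested.

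Of 11680 genes tested, 1791 (15.3%) differed between the populations, 959 (8.21%) higher in CD8 and 832 (7.12%) higher in Treg. The median log2 fold change was -1.52 among the genes higher in Treg and 1.10 among those higher in CD8. More than 4-fold differences numbered 254 toward Treg and 135 toward CD8. In 951 of the 959 and 789 of the 832 genes the 4 values of one population all lay above those of the other, against 14.6% of all tested genes with CD8 above and 11.1% with Treg above. The count fell to 1117 without CD8 library 2 and to 1147 without CD8 library 1, and it was 925 without Treg libraries 2 and 3. Since these are bulk samples, more cells of a kind and more RNA per cell cannot be told apart.

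**Figure D2:**
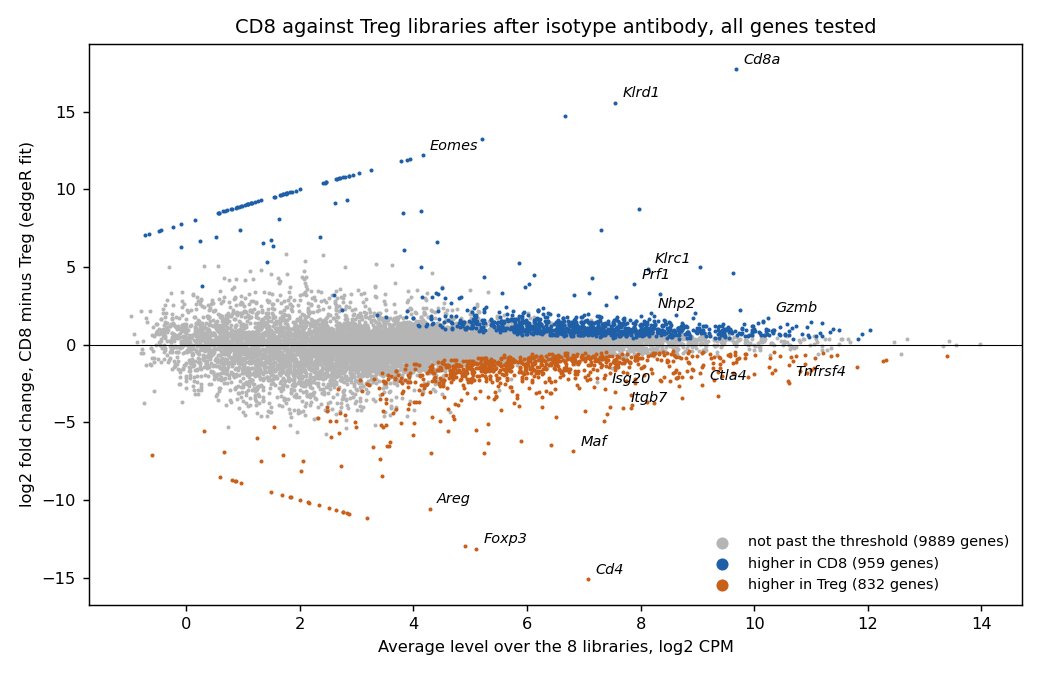
log2 fold change (CD8 minus Treg) against the average level in log2 CPM for all genes tested, with 959 genes higher in CD8 and 832 higher in Treg coloured. The straight lines of points at the top left and bottom left are genes with no count in one group, whose fitted value depends on the prior count of the fit.

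Genes of cytotoxic function were mainly higher in CD8: of 18 tested granule genes, 11 were higher in CD8 and 2 in Treg, with a median log2 fold change of 1.29 against -0.06 over all genes. Prf1, which encodes the pore-forming protein perforin, stood at 572, 477, 319.7 and 399.6 CPM in CD8 and at 52.9, 16.8, 14.8 and 34.1 CPM in Treg (log2 fold change 3.90 ± 0.43, adjusted p = 0.000663). Gzmb, granzyme B, stood at 2503, 2279, 1416 and 1271 CPM in CD8 and at 546, 657, 624 and 413 CPM in Treg (log2 fold change 1.74 ± 0.25, adjusted p = 0.00237). Both genes were higher in every CD8 library than in any Treg library, but no Treg library was near 0 for Gzmb. Gzmk, granzyme K, was at 387, 253, 306 and 314 CPM in CD8 and at 0, 0, 7.46 and 0.188 CPM in Treg (log2 fold change 7.40 ± 1.35, adjusted p = 0.00702), and Treg library 3 alone gave nearly all of the Treg counts. On the length-corrected scale of transcript abundance (TPM), the mean CD8 level was 2821 ± 926 TPM for Gzmb, 372 ± 91.99 TPM for Prf1 and 492 ± 83.7 TPM for Gzmk. Nkg7, a granule membrane protein, was high in both populations, with 5973, 5559.9, 5863 and 4838 CPM in CD8 and 3446, 3404, 2726 and 1972 CPM in Treg (log2 fold change 0.95 ± 0.18, adjusted p = 0.00796). The 2 granule genes higher in Treg were Srgn, the proteoglycan serglycin that packs granule proteins (-1.61 ± 0.19, adjusted p = 0.000984), and Stx11, a syntaxin of granule fusion (-0.97 ± 0.20, adjusted p = 0.0123). Without CD8 library 2 the granule genes higher in CD8 numbered 7, and without Treg libraries 2 and 3 they numbered 9.

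Cytokine genes divided between the populations, 5 of 27 tested higher in CD8 and 6 higher in Treg. Ifng, interferon gamma, stood at 313, 431, 378 and 226 CPM in CD8 and 47.3, 29.4, 62.2 and 24.3 CPM in Treg (log2 fold change 3.05 ± 0.34, adjusted p = 0.000643). Ccl3, a chemokine that binds CCR1, stood at 1521, 1650.1, 1313 and 1159 CPM in CD8 and 402, 377, 194 and 228 CPM in Treg (log2 fold change 2.23 ± 0.25, adjusted p = 0.000752). Spp1, osteopontin, was at 216, 301, 1081 and 759.8 CPM in CD8 and 51.9, 62.2, 36.5 and 92.4 CPM in Treg (log2 fold change 3.28 ± 0.54, adjusted p = 0.00427). Ifng, Ccl3 and Spp1 did not overlap between the groups, and Spp1 differed among CD8 libraries, with libraries 3 and 4 above libraries 1 and 2. Ccl4 was higher in CD8 too (1678 ± 407 CPM against 593 ± 177 CPM, adjusted p = 0.00422), whereas Ccl5 was higher in Treg (-0.73 ± 0.20, adjusted p = 0.0385) with values that overlapped, and its call was lost when any 1 of 6 libraries was left out (adjusted p = 0.052 to 0.116 without CD8 library 1, 2 or 4 or Treg library 1, 2 or 3). Il2 (3.76 ± 1.41, adjusted p = 0.113) and Tnf (-0.76 ± 0.61, adjusted p = 0.496) did not pass the threshold. Without CD8 library 1 or CD8 library 2 the cytokine genes higher in Treg numbered 3.

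Receptors first described on NK cells showed large differences toward CD8, with 11 of 20 tested genes higher in CD8, 2 higher in Treg and a median log2 fold change of 4.03. Klrd1, which encodes CD94, stood at 487, 452, 309 and 252 CPM in CD8 and at 0 in each Treg library, at least 9046-fold higher in CD8. Its heterodimer partner Klrc1, NKG2A, an inhibitory receptor for Qa-1, stood at 490.0, 597, 635 and 435 CPM in CD8 and 13.3, 22.9, 22.9 and 13.3 CPM in Treg (log2 fold change 4.89 ± 0.27, adjusted p = 3.11e-05). Klrk1, the activating receptor NKG2D, was at 506, 530.3, 455 and 511 CPM in CD8 and at 0, 0, 0 and 5.001 CPM in Treg (log2 fold change 8.74 ± 1.31, adjusted p = 0.00289). For all 3 genes every CD8 value lay above every Treg value, and Treg library 4 was the only Treg library with Klrk1 counts. Klra3, a Ly49 receptor whose near-identical relatives may share reads, stood at 37.6, 54.2, 10.3 and 7.33 CPM in CD8 and 0 in each Treg library, with CD8 libraries 1 and 2 above libraries 3 and 4. Cd160, a receptor for HVEM, stood at 304, 325, 215 and 233 CPM in CD8 and 13.9, 4.04, 13.3 and 22.6 CPM in Treg (log2 fold change 4.33 ± 0.47, adjusted p = 0.000575). Klrg1 ran the other way. This inhibitory receptor for cadherins stood at 9.23, 8.41, 12.3 and 21.5 CPM in CD8 and 317, 326, 193 and 157 CPM in Treg (log2 fold change -4.26 ± 0.39, adjusted p = 0.000271), with no overlap. The NK-cell marker Ncr1 was at 0 in all 8 libraries, and summed NK markers, of which Klra9 alone passed the expression filter, ranged from 3.11 to 9.002 CPM in CD8 and were 0 in Treg. The other gene higher in Treg was Hcst, the NKG2D adaptor DAP10 (log2 fold change -0.67 ± 0.18, adjusted p = 0.0344), and its call was lost without any 1 library except Treg library 4 (adjusted p = 0.0557 to 0.107) and without Treg libraries 2 and 3 (0.238). Without that pair 12 genes were higher in CD8 and 1 in Treg.

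Further genes at 0 in every Treg library were Serpine2, a secreted serine protease inhibitor, at 231, 171, 189 and 219 CPM in CD8 (at least 5086-fold higher), Eomes, a T-box factor of effector and memory CD8 cells, at 35.2, 34.7, 39.4 and 33.4 CPM (at least 896-fold higher), and Trgc2, a T-cell receptor gamma constant segment, at 45.01, 50.3, 118 and 82.2 CPM (at least 1929-fold higher). Eomes was nearly level across the CD8 libraries, while Trgc2 was higher in libraries 3 and 4. Trdc, the delta constant segment, did not pass the threshold. Ly6c2, a surface protein of effector and memory CD8 cells, stood at 1902, 1661, 1283 and 1250.1 CPM in CD8 and 100.5, 66.8, 63.4 and 19.4 CPM in Treg (log2 fold change 4.61 ± 0.46, adjusted p = 0.000388). Its groups did not overlap. Themis, an adaptor of T-cell receptor signalling, stood at 265, 276, 204 and 225 CPM in CD8 and 63.3, 72.3, 64.8 and 66.6 CPM in Treg (log2 fold change 1.86 ± 0.15, adjusted p = 0.000127), again with no overlap.

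Treg identity genes were higher in Treg in 16 of 24 tested, none in CD8, with a median log2 fold change of -2.97. Ikzf2, the transcription factor Helios, stood at 86.9, 88.3, 189.8 and 119 CPM in CD8 and 951, 1264, 1470.4 and 1108 CPM in Treg (log2 fold change -3.31 ± 0.28, adjusted p = 0.000175). Izumo1r, also known as folate receptor 4, stood at 26.5, 26.3, 16.9 and 31.5 CPM in CD8 and 318, 471, 539 and 397 CPM in Treg (log2 fold change -4.09 ± 0.25, adjusted p = 4.41e-05). Il2ra, the IL-2 receptor alpha chain CD25, stood at 27.9, 22.9, 41.8 and 39.5 CPM in CD8 and 139, 265, 193 and 209 CPM in Treg (log2 fold change -2.61 ± 0.27, adjusted p = 0.00044). None of these 3 genes overlapped between the groups, and each was also present in every CD8 library, Ikzf2 at 86.9 CPM or more. Lrrc32, which encodes the TGF-beta docking protein GARP, was at 0.966 ± 1.93 CPM (mean ± SD, n = 4) in CD8 and 78.4 ± 21.8 CPM in Treg. Nrp1, neuropilin-1, was listed among these genes but did not pass (-0.62 ± 0.22, adjusted p = 0.091, and 0.0482 without Treg library 2). Without Treg libraries 2 and 3 the count was 15.

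Of 16 tested mediators of suppression, 7 were higher in Treg and 1, Gzmb, in CD8, with a median of -1.73. Il10, an anti-inflammatory cytokine, stood at 6.66, 12.7, 5.22 and 3.64 CPM in CD8 and 192, 296, 159 and 56.7 CPM in Treg (log2 fold change -4.64 ± 0.58, adjusted p = 0.00123). Areg, the epidermal growth factor receptor ligand amphiregulin, stood at 0, 0.0801, 0 and 0 CPM in CD8, where 1 count was seen in all, and at 12.3, 75.7, 45.4 and 22.2 CPM in Treg (adjusted p = 0.000404). Both genes varied several-fold among the Treg libraries without reaching the CD8 range. Fgl2 (-4.04 ± 0.33), a secreted inhibitor of dendritic cells, Nt5e (-3.93 ± 0.57), the adenosine-producing enzyme CD73, and Ebi3 (-4.81 ± 0.63), a subunit of IL-27 and IL-35, were higher in Treg with adjusted p of 0.000144, 0.0025 and 0.00159. Entpd1, the CD39 enzyme upstream of CD73, was at 131 ± 29.3 CPM in CD8 and 167 ± 41.6 CPM in Treg and did not pass (-0.34 ± 0.23, adjusted p = 0.394). Tgfb1 did not pass either (-0.44 ± 0.48, adjusted p = 0.633). Leaving out Treg libraries 2 and 3 gave the same counts, 7 and 1.

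Among TNF receptor and costimulator genes, 10 of 22 tested were higher in Treg and 1 in CD8. Tnfrsf4, which encodes OX40, stood at 495, 496, 550.1 and 504 CPM in CD8 and 2427, 2903, 2837 and 2184 CPM in Treg (log2 fold change -2.34 ± 0.12, adjusted p = 3.11e-05). Tnfrsf18, GITR, stood at 188, 194, 269 and 202 CPM in CD8 and 1006, 1145, 1226 and 798 CPM in Treg (log2 fold change -2.29 ± 0.18, adjusted p = 0.000135). Icos, a CD28 relative, stood at 65.9, 73.02, 63.1 and 86.6 CPM in CD8 and 575, 1023, 854 and 643 CPM in Treg (log2 fold change -3.42 ± 0.22, adjusted p = 4.5e-05). These receptors were present in all CD8 libraries at well above 0 and did not overlap with the Treg levels. Tnfrsf9, the receptor 4-1BB, was at 1526 ± 202 CPM in CD8 and 1803 ± 233 CPM in Treg and did not pass (-0.24 ± 0.14, adjusted p = 0.304, 95% interval -0.55 to 0.07). Cd226, an activating receptor for CD155, was the 1 costimulator higher in CD8 (0.79 ± 0.13, adjusted p = 0.00455). Without Treg libraries 2 and 3 the costimulators higher in Treg numbered 5.

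Of 21 tested inhibitory receptor genes, 11 were higher in Treg and 2, Klrc1 and Cd160, in CD8. Pdcd1, which encodes PD-1, the target of one antibody of the series, stood at 824, 958, 667 and 682 CPM in CD8 and 418, 634, 636 and 896 CPM in Treg. Those values overlapped, and the difference did not pass (log2 fold change 0.28 ± 0.22, adjusted p = 0.495, 95% interval -0.22 to 0.78). Ctla4, a competitor of CD28 for its ligands, stood at 154, 175, 135 and 139 CPM in CD8 and 802, 1319, 919 and 674 CPM in Treg (log2 fold change -2.62 ± 0.22, adjusted p = 0.000144). Tigit, a receptor for CD155, stood at 651, 704, 584 and 611 CPM in CD8 and 1668, 2348, 2222 and 1775 CPM in Treg (log2 fold change -1.65 ± 0.14, adjusted p = 0.000175). Ctla4 and Tigit did not overlap between the groups. Lag3, which binds MHC class II, was at 141 ± 37.00 CPM in CD8 and 139.6 ± 46.8 CPM in Treg (95% interval of the log2 difference -0.64 to 0.68, adjusted p = 0.98), and Havcr2, TIM-3, was at 126 ± 30.4 CPM and 65.5 ± 29.95 CPM (0.94 ± 0.32, adjusted p = 0.0786, and 0.0132 without Treg library 3). Without Treg libraries 2 and 3, 8 were higher in Treg and 4 in CD8.

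Jaml, which encodes the target of the other antibody, was low in both populations. It stood at 7.55, 7.29, 20.3 and 5.9 CPM in CD8 and at 0, 0, 0 and 0.75 CPM in Treg, with CD8 library 3 above the other CD8 libraries and counts in Treg library 4 only. Every CD8 value lay above every Treg value, but the difference missed the threshold (log2 fold change 5.76 ± 1.78, adjusted p = 0.0593). Adjusted p for Jaml ranged from 0.000905 with DESeq2 to 0.227 with edgeR's test against a 2-fold minimum. It passed with limma voom (0.0105), with all 24 libraries in one fit (0.00105) and without Treg library 4 (0.00864). In the antibody-treated libraries, Jaml was at a mean of 40.5 CPM in CD8 and 1.43 CPM in Treg and passed (5.92 ± 0.86, adjusted p = 0.00017).

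Receptors for chemokines and cytokines leaned toward Treg. Of 22 tested genes of chemokine reception and tissue egress, 8 were higher in Treg and none in CD8 (median -1.54). Ccr8 stood at 21.8, 37.7, 60.2 and 45.7 CPM in CD8 and 549.9, 699, 552 and 441 CPM in Treg (log2 fold change -3.76 ± 0.31, adjusted p = 0.000144). Ccr2, the receptor for CCL2, stood at 8.61, 19.4, 18.98 and 10.9 CPM in CD8 and 278, 533, 205 and 281 CPM in Treg (log2 fold change -4.49 ± 0.40, adjusted p = 0.000226). Cxcr3, the receptor for the interferon-induced chemokines CXCL9 and CXCL10, stood at 105, 115, 109.9 and 119.5 CPM in CD8 and 756, 856, 681 and 512 CPM in Treg (log2 fold change -2.64 ± 0.17, adjusted p = 4.64e-05). None of the 3 overlapped between groups. Cxcr6, the receptor for CXCL16, was high in both, at 1569 ± 386 CPM in CD8 and 1559 ± 317 CPM in Treg (95% interval of the log2 difference -0.46 to 0.48). Of 29 cytokine receptor genes, 13 were higher in Treg and 1, Il18rap, in CD8 (median -1.07). Ifngr1, the ligand-binding chain of the interferon gamma receptor, stood at 785, 1007, 876 and 820.3 CPM in CD8 and 2866, 3483, 3242 and 2582 CPM in Treg (log2 fold change -1.80 ± 0.13, adjusted p = 0.000109), with no overlap. Chemokine receptor genes higher in Treg numbered 5 without CD8 library 3 and 5 without Treg libraries 2 and 3, and cytokine receptor genes 8 without CD8 library 1 or 2 and 7 without that Treg pair.

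Among 18 tested integrin and adhesion genes, 7 were higher in Treg and none in CD8. Itgb7, the beta-7 chain that pairs with alpha-4 and alpha-E, stood at 24.1, 24.1, 27.2 and 18.1 CPM in CD8 and 289, 343, 371 and 562 CPM in Treg (log2 fold change -4.07 ± 0.25, adjusted p = 4.41e-05). Itgae, the alpha-E chain CD103 used as a marker of tissue-resident CD8 cells, stood at 3.37, 0.881, 2.51 and 4.65 CPM in CD8 and 29.6, 30.3, 23.4 and 15.9 CPM in Treg (log2 fold change -3.11 ± 0.58, adjusted p = 0.0076). Both were higher in every Treg library, though the Itgae call was lost with all 24 libraries in one fit (adjusted p = 0.111). Itgae was the 1 member of the CD8 lineage list (7 of 10 tested higher in CD8) that was higher in Treg. Itga4 (-0.19 ± 0.17, adjusted p = 0.57) and Cd44 (-0.70 ± 0.21, adjusted p = 0.0555, and 0.0243 without Treg library 1) did not pass. Without Treg libraries 2 and 3 the integrin and adhesion count was 4.

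Transcription factors split 22 toward Treg and 6 toward CD8 out of 56 tested. The count toward CD8 lies near the share over all genes (8.21%), while that toward Treg lies above its share (7.12%). Maf, a factor of IL-10-producing T cells, stood at 3.37, 0.641, 2.78 and 0.954 CPM in CD8 and 248, 225, 252 and 166 CPM in Treg (log2 fold change -6.86 ± 0.51, adjusted p = 0.000109). Rora, a nuclear receptor, stood at 15.6, 22.5, 16.7 and 18.7 CPM in CD8 and 125, 158, 134 and 156 CPM in Treg (log2 fold change -2.96 ± 0.19, adjusted p = 4.5e-05). Hif1a, the oxygen-regulated factor, stood at 104, 168, 167 and 152 CPM in CD8 and 568, 500.5, 764 and 729 CPM in Treg (log2 fold change -2.12 ± 0.20, adjusted p = 0.000309). All 3 were separate between the groups. The 6 toward CD8 were Eomes, Nr4a2 (2.39 ± 0.40, adjusted p = 0.00499), Myc (1.11 ± 0.14, adjusted p = 0.00123), Ikzf1, Stat4 and Tox (0.67 ± 0.15, adjusted p = 0.0179), the last a factor of chronically stimulated CD8 cells. Zbtb7b, the CD4-lineage factor ThPOK, was higher in Treg (-3.47 ± 0.75, adjusted p = 0.0142), a call that was lost without Treg libraries 2 and 3 (adjusted p = 0.0994). The Tox call was lost without CD8 library 1 (0.0606) or 2 (0.0543), the Stat4 call without CD8 library 2, 3 or 4 (0.0568 to 0.0735) and the Ikzf1 call without any 1 of CD8 libraries 1 to 3 and Treg libraries 1 to 3 (0.06 to 0.0971). Runx3, the CD8-lineage factor, did not pass (0.59 ± 0.44, adjusted p = 0.447), and neither did Tbx21 (-0.23 ± 0.46), Tcf7 (0.17 ± 0.51) or Batf (0.08 ± 0.21), with adjusted p of 0.819, 0.882 and 0.853. Without Treg libraries 2 and 3 the split was 13 and 4, and without CD8 library 2 the factors higher in CD8 numbered 3.

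**Figure D3:**
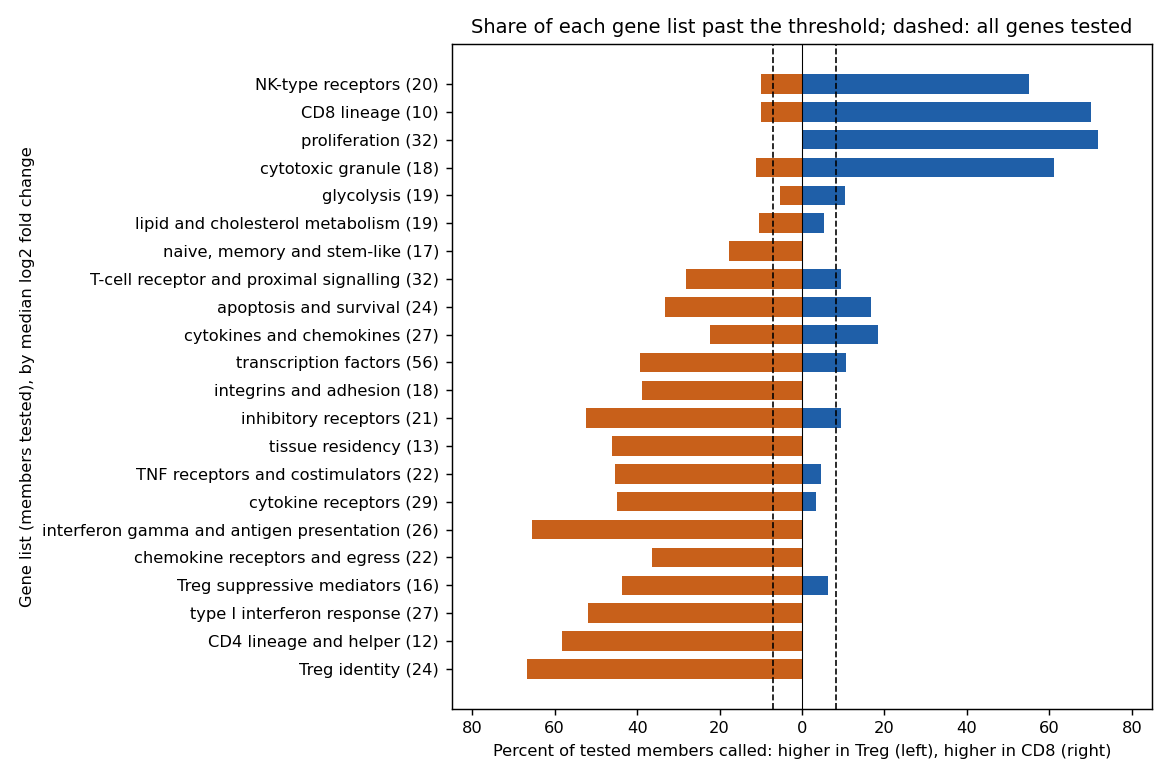
Percent of the tested members of each of 22 gene lists called higher in Treg (left) or in CD8 (right), ordered by median log2 fold change, with the number tested in brackets. Dashed lines mark the shares over all genes, 7.12% and 8.21%. Granule, NK-type receptor, CD8 lineage and proliferation genes extend to the right, Treg identity and interferon-response genes to the left.

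Proliferation genes were higher in CD8 in 23 of 32 tested, none in Treg, and all 32 had a positive log2 fold change (median 1.33). Cdk1, the mitotic cyclin-dependent kinase, stood at 294, 303, 267 and 273 CPM in CD8 and 103, 100.1, 81.7 and 101 CPM in Treg (log2 fold change 1.56 ± 0.13, adjusted p = 0.000144). Ube2c, a ubiquitin-conjugating enzyme of mitotic exit, stood at 497, 543, 426 and 415 CPM in CD8 and 161, 176, 77.2 and 98.9 CPM in Treg (log2 fold change 1.87 ± 0.26, adjusted p = 0.00209). Tpx2, a spindle assembly factor, stood at 116, 123, 111 and 90.9 CPM in CD8 and 50.2, 22.6, 23.6 and 38.4 CPM in Treg (log2 fold change 1.71 ± 0.28, adjusted p = 0.00442). The CD8 values of these 3 genes lay above all Treg values, and the Treg values were also well above 0. Mki67, which encodes the antigen Ki-67, was at 109 ± 34.3 CPM in CD8 and 55.1 ± 29.8 CPM in Treg and did not pass (0.98 ± 0.42, adjusted p = 0.165). The count moved with single libraries: it was 11 without CD8 library 1, 11 without CD8 library 2, 12 without CD8 library 3, 14 without CD8 library 4, 13 without Treg library 2 and 15 without Treg library 3, and it was 13 without both those Treg libraries and 9 with genes detected per library added as a covariate.

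Genes of ribosome production, protein synthesis and protein folding were higher in CD8, in groups formed from gene symbols after the values had been seen. Of 81 tested cytosolic ribosomal protein genes, which can share reads with processed pseudogenes, 53 were higher in CD8 and none in Treg (median 0.75). A wider set, all rows whose symbol starts with Rpl or Rps and a digit, held 8.54 to 9.62% of counts per CD8 library. In the Treg libraries it held 4.96 to 7.26%, with no overlap, a description only, since the group was formed after its values were seen. Of 74 mitochondrial ribosomal protein genes 34 were higher in CD8 (median 0.71), of 37 proteasome subunits 19 (median 0.65), and of 8 subunits of the CCT chaperonin, which folds actin and tubulin, 7 (median 1.15). None of these genes was higher in Treg. Nhp2, a protein of small nucleolar ribonucleoproteins, stood at 433, 459, 526 and 439 CPM in CD8 and 151, 107, 95.8 and 101 CPM in Treg (log2 fold change 2.03 ± 0.17, adjusted p = 0.000175), though its exons overlap those of Rmnd5b. Nup107, a nuclear pore protein, stood at 88.9, 108, 96.6 and 96.9 CPM in CD8 and 22.5, 29.8, 22.9 and 20.2 CPM in Treg (log2 fold change 2.03 ± 0.19, adjusted p = 0.000283). Neither gene overlapped between the groups. Of the 11 tested genes of the mitochondrial genome none passed (median 0.13). Medians stayed positive in all 4 groups under 2 other scalings, but without Treg libraries 2 and 3 the counts were 8 cytosolic ribosomal, 11 mitochondrial ribosomal, 4 proteasome and 6 chaperonin genes. The mitochondrial ribosomal count was 12 to 18 without any 1 CD8 library, 21 without Treg library 2, 18 without Treg library 3 and 51 without Treg library 1. The number of genes detected was 13927 to 14390 per CD8 library and 12643 to 14378 per Treg library (exact permutation test, p = 0.114).

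Of 19 tested glycolysis genes, 2 were higher in CD8 and 1 in Treg. Those counts lie near the shares over all genes tested, 8.21% and 7.12%. The split also moved with single libraries. It was 5 and 1 without Treg library 1, 3 and 1 without Treg library 4, 2 and 2 without Treg library 2, 1 and 2 without Treg library 3, 1 and 1 without CD8 library 1 or 2, and 1 and 3 without Treg libraries 2 and 3, and in the antibody-treated libraries it was 0 and 5. Slc16a1, the lactate transporter MCT1, was at 61.4 ± 10.4 CPM in CD8 and 14.2 ± 4.03 CPM in Treg (log2 fold change 2.11 ± 0.29, adjusted p = 0.00185), and Aldoc, an aldolase, was higher in Treg (-2.41 ± 0.35, adjusted p = 0.00238). Slc16a1 values did not overlap. Ldha, lactate dehydrogenase A, was at 3579 ± 269.6 CPM in CD8 and 2832 ± 484 CPM in Treg (adjusted p = 0.137, and 0.0297 without Treg library 1). Lipid and cholesterol genes, again near the shares over all genes, had 1 of 19 higher in CD8, the fatty acid binding protein Fabp5 (1.72 ± 0.32, adjusted p = 0.00769), and 2 in Treg, among them the cholesterol exporter Abcg1 (-2.75 ± 0.41, adjusted p = 0.00284). The Fabp5 call was lost with genes detected per library as a covariate (adjusted p = 0.0749). Those 2 numbered 1 without any 1 CD8 library and without Treg library 2 or 4, and the genes higher in CD8 numbered 2 without Treg library 1. Of 24 genes of apoptosis and survival, 4 were higher in CD8, including Bcl2l11, the pro-apoptotic BIM (1.62 ± 0.38), and 8 were higher in Treg, including the caspase-8 inhibitor Cflar (-1.44 ± 0.19), with adjusted p of 0.0196 and 0.00152. The Bcl2l11 call was lost without CD8 library 1, 2 or 3 (0.0555 to 0.0727). Those 8 numbered 4 without CD8 library 2 and 2 without Treg libraries 2 and 3, and the 4 numbered 2 without CD8 library 1, 2 or 3. Of 17 naive, memory and stem-like genes, Slamf6, S1pr1 and Il7r were higher in Treg, and none of the 17 passed without CD8 library 1, without CD8 library 2 or without Treg library 2.

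Interferon-response genes were higher in Treg. In the type I interferon list 14 of 27 tested genes were higher in Treg, none in CD8, and all 27 had a negative log2 fold change (median -1.95). In the list of interferon gamma response and antigen presentation 17 of 26 were higher in Treg and none in CD8 (median -1.11). Type I interferon acts on interferon-stimulated response elements through factors that include STAT2 and IRF9, while interferon gamma induces the factor IRF1. To show the DNA at the start sites of such genes, promoter windows of 5 genes higher in Treg, picked because they hold the motif described next, are printed from the RefSeq table (build GRCm38.p6, 250 bases before to 50 after the start). In capitals stands each match to the interferon-stimulated response element motif searched, GAAA, any 2 bases and again GAAA, on both strands, so that a match on the other strand reads TTTC, 2 bases and TTTC, and overlapping matches form one run. The windows are chr11:58199306-58199605 (plus strand) for Igtp, chr11:58214727-58215026 (plus) for Irgm2, chr19:34640639-34640938 (plus) for Ifit1, chr5:120907476-120907775 (minus) for Oas1a and chr2:122147437-122147736 (plus) for B2m.
Igtp: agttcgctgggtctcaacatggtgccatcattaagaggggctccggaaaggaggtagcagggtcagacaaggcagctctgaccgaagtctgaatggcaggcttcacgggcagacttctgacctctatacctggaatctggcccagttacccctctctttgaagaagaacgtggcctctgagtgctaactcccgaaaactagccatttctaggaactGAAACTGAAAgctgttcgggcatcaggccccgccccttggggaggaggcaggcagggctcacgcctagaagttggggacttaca
Irgm2: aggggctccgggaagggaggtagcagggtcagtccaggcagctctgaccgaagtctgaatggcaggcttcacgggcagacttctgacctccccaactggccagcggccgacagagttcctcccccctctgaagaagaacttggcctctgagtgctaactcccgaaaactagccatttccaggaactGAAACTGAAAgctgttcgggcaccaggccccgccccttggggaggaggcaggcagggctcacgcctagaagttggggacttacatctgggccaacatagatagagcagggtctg
Ifit1: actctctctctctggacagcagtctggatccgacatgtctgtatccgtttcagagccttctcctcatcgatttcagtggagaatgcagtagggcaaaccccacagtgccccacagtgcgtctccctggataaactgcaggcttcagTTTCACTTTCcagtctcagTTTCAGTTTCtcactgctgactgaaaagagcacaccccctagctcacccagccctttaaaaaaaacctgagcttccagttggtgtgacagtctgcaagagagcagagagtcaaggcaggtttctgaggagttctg
Oas1a: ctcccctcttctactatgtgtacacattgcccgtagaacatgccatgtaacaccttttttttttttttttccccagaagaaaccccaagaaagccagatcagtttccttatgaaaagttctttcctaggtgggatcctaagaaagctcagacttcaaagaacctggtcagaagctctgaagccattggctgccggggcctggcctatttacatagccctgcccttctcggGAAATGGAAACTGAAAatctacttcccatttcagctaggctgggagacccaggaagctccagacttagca
B2m: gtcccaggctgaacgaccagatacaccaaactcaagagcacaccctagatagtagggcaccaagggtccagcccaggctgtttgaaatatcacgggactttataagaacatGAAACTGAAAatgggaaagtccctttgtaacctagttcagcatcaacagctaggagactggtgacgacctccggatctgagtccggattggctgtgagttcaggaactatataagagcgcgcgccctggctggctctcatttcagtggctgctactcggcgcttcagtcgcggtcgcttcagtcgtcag

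Ifit1 and Oas1a held 2 matches each and Igtp, Irgm2 and B2m 1 each. Of the 14 type I interferon genes higher in Treg, 9 had a window in the table and 7 of those held the motif, against 3.99% of 27025 genes. Isg20, described below, has 3 windows in the table, none with a match, and they are not printed. Among the tested genes of that list that did not pass, 5 of 9 with a window held it. For the interferon gamma list the numbers were 7 of 12 among those higher in Treg and 2 of 7 among the others. Of the genes with a window, none of 12 Treg identity genes higher in Treg held it. Among genes higher in CD8 with a window, none of 18 proliferation genes held it, and 2 of 10 granule genes did, Gzma and Serpinb9. A match describes the letters of the window, and binding was not measured.

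Ifit1, an RNA-binding antiviral protein, stood at 12.6, 19.1, 13.6 and 20.3 CPM in CD8 and 82.3, 107, 146 and 121 CPM in Treg (log2 fold change -2.80 ± 0.26, adjusted p = 0.000273). Igtp, an interferon-inducible GTPase, stood at 148, 179, 177 and 142 CPM in CD8 and 701, 810.1, 586 and 648 CPM in Treg (log2 fold change -2.09 ± 0.15, adjusted p = 7.67e-05). Irgm2, of the same GTPase family, stood at 13.5, 11.8, 24.2 and 15.6 CPM in CD8 and 107, 166, 117 and 139 CPM in Treg (log2 fold change -3.02 ± 0.28, adjusted p = 0.000266). These genes did not overlap between the groups, but exons of Igtp and Irgm2 overlap each other on the same strand, so their reads could be assigned to either. Isg20, an exonuclease that the Treg libraries held at 305, 260.2, 346 and 247 CPM and the CD8 libraries at 41.3, 36.6, 44.7 and 39.8 CPM, was among the genes with the smallest p (log2 fold change -2.83 ± 0.16, adjusted p = 3.11e-05). Iigp1, a GTPase of the same family as Igtp, stood at 9.32, 3.6, 12.7 and 16.7 CPM in CD8 and 216, 335, 509.8 and 210.0 CPM in Treg (log2 fold change -4.90 ± 0.51, adjusted p = 0.000456). Oas1a, a sensor enzyme of double-stranded RNA, was at 11.8 ± 5.9 CPM in CD8 and 94.4 ± 25.1 CPM in Treg (log2 fold change -3.001 ± 0.40, adjusted p = 0.00172). Among the transcription factors of these lists Irf7 (-1.71 ± 0.20) and Irf1 (-1.17 ± 0.18) were higher in Treg, with adjusted p of 0.00084 and 0.00326. Isg15 and Mx1 were low in both populations and did not pass (adjusted p = 0.67 and 0.777).

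Of 14 tested MHC class I heavy chain genes, grouped by symbol after the values had been seen, 7 were higher in Treg and 1 in CD8 (median -0.72), and members alike in sequence may share reads. H2-K1, a classical heavy chain, stood at 3091, 3521, 3043 and 3087 CPM in CD8 and 5889, 6814, 6989 and 6756 CPM in Treg (log2 fold change -1.05 ± 0.10, adjusted p = 0.000309), with no overlap. The 1 higher in CD8 was H2-Q10, at 5.5, 4.88, 3.66 and 5.96 CPM in CD8 and 0.205, 0.0879, 0.176 and 0 CPM in Treg (log2 fold change 5.32 ± 1.28, adjusted p = 0.021), a call that was lost without any 1 CD8 library or Treg library 2 (adjusted p = 0.0523 to 0.0659) and without Treg libraries 2 and 3 (0.0949). B2m, the light chain, was at 8234 ± 523 CPM in CD8 and 13324 ± 2985 CPM in Treg (log2 fold change -0.69 ± 0.17, adjusted p = 0.0211). That call was lost without any 1 of CD8 libraries 1 and 2 and Treg libraries 2 and 3 (adjusted p = 0.0581 to 0.0664). The B2m call was also lost without that Treg pair (0.198), with all 24 libraries in one fit (0.15) and with genes detected per library as a covariate (0.128). The immunoproteasome gene Psmb9 (0.07 ± 0.11, adjusted p = 0.746) and the peptide transporter gene Tap1 (-0.94 ± 0.33, adjusted p = 0.0931, and 0.021 without Treg library 1) did not pass. Without Treg libraries 2 and 3 the counts higher in Treg were 10 for the type I list and 11 for the interferon gamma list. The summed dendritic cell, macrophage, stroma and B-cell markers given above also reached higher values in Treg, and their part in these counts was not tested.

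**Figure D4:**
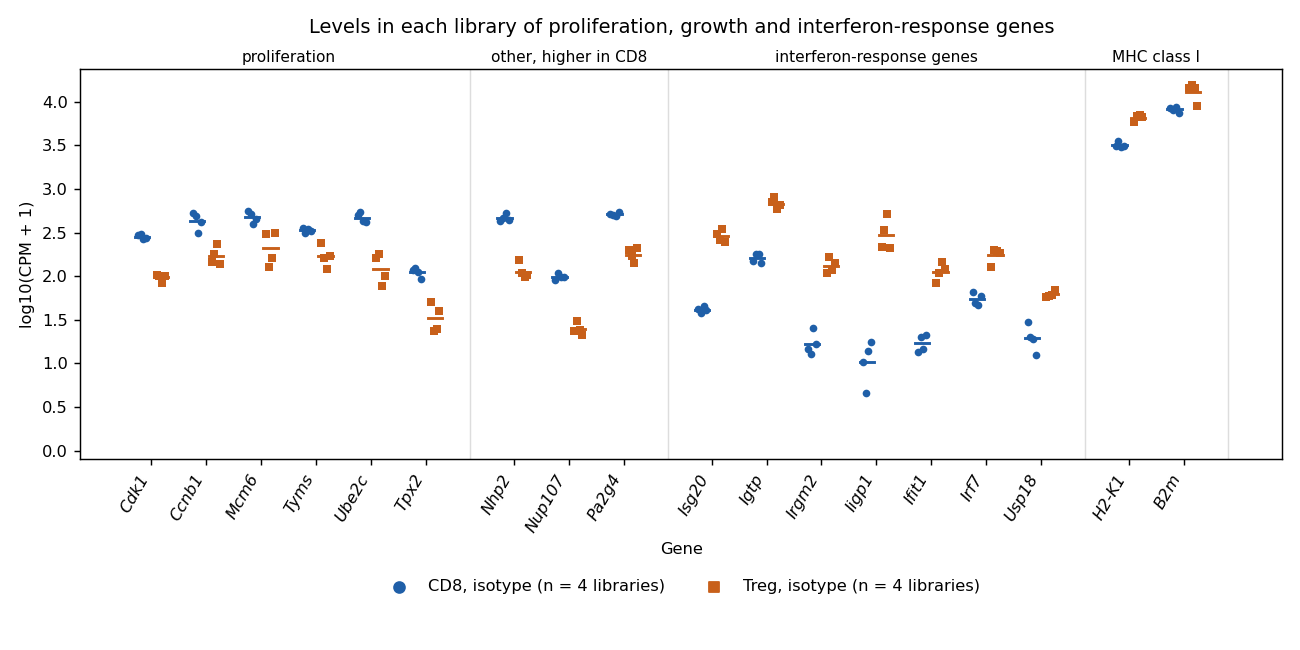
Level in each isotype library, as log10(CPM + 1), of proliferation genes, of Nhp2, Nup107 and Pa2g4, and of interferon-response and MHC class I genes, with circles for the 4 CD8 and squares for the 4 Treg libraries and lines for the means of the plotted values. CD8 values of Cdk1 and Nup107 lie above all Treg values, and Treg values of Isg20 and Igtp above all CD8 values.

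Of 32 tested genes of T-cell receptor signalling, 3 were higher in CD8 and 9 in Treg, with a median log2 fold change of -0.34. The CD8 count lies near the share over all genes (8.21%), and the Treg count lies above its share (7.12%). Besides Themis, the adaptors Sh2d1a (1.30 ± 0.19) and Sh2d2a (1.17 ± 0.23) were higher in CD8, with adjusted p of 0.00252 and 0.00983. Cish, a cytokine-induced inhibitor of signalling, was higher in Treg (-3.98 ± 0.50, adjusted p = 0.00125), as was Cd5, a negative regulator of receptor signals (-1.54 ± 0.15, adjusted p = 0.000309). The genes higher in Treg numbered 5 without CD8 library 1 and 3 without Treg libraries 2 and 3. Without that pair the genes higher in CD8 numbered 2 and the Sh2d2a call was lost (adjusted p = 0.0801). The Sh2d2a call was also lost with genes detected per library as a covariate (0.0772).

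The variable segments of the receptor were less evenly used in CD8. The effective number of Trbv segments, the inverse of the summed squared shares, was 5.55 to 8.88 in CD8 and 10.2 to 11.96 in Treg, and that of Trav segments 3.05 to 18.6 and 22.8 to 27.9, with no overlap in either (exact permutation tests, two-sided, p = 0.0286 each, the smallest that 4 against 4 can give, adjusted p = 0.0429 over 3 such tests). The leading beta segment differed between CD8 libraries: Trbv12-2 with 24.2% of Trbv counts in library 1, Trbv13-1 with 24.8% in library 2, and Trbv19 with 32.7% in library 3 and 38.6% in library 4. In all 4 Treg libraries it was Trbv13-2, with 15.3 to 18.2%. The leading alpha segment of CD8 libraries 1 and 2 was Trav8n-2, with 52.1% and 33.0% of Trav counts, where near-identical segments may share reads. In CD8 libraries 3 and 4 Trav8n-2 held 1.11% and 1.69%. Trav10d held 12.7% and 6.51% there and 0 in CD8 libraries 1 and 2. The permutation tests treat the 4 CD8 libraries as separate units, and whether any of them share a mouse was not tested. Trbv counts numbered 2041 to 7066 per CD8 library and 9909 to 20550 per Treg library, and the part of this gap in the effective numbers was not tested.

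The same population difference was then read in the 16 libraries from mice given anti-PD-1 or anti-JAML, which share no library with the isotype comparison. There 1850 of 13789 genes (13.4%) passed, 844 higher in CD8 (6.12%) and 1006 higher in Treg (7.3%). Of the 1791 genes found after isotype, 1787 were tested again, 1761 had the same direction and 1009 passed in that direction, which is 56.3% of the isotype list and 54.5% of the antibody list. The shares were 51.8% of the genes higher in CD8 and 61.5% of those higher in Treg. Klrc1 (5.74 ± 0.71), Maf (-6.20 ± 0.73), Tnfrsf4 (-2.25 ± 0.23) and Isg20 (-2.53 ± 0.15) were among the genes that passed again, with adjusted p of 3.09e-05, 1.92e-05, 3.43e-06 and 5.91e-09. Fam49a, chosen here after its values were seen, was the 1 gene that passed in opposite directions (-0.83 ± 0.25 after isotype, 1.03 ± 0.24 after the antibodies, adjusted p = 0.0496 and 0.00818), and its isotype call was lost without any 1 library except Treg library 4 (adjusted p = 0.0568 to 0.139). Proliferation genes passed in 8 of 32 cases in those libraries (median 0.43) and cytosolic ribosomal protein genes in 9 (median 0.49), while Treg identity genes passed in 17 and type I interferon genes in 15.

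The difference between the 2 comparisons was tested directly over all 24 libraries. With edgeR 2 of 14591 genes passed (0.0137%), and with limma voom 4. In the edgeR test 1122 genes had an unadjusted p under 0.05, against about 730 expected by chance. Genes that did not pass thus cannot be taken as equal in the 2 comparisons. Kif2c, a kinesin of the mitotic spindle, was at 43.4 ± 6.85 CPM in CD8 and 6.73 ± 2.13 CPM in Treg after isotype and at a mean of 46.8 and 45.6 CPM after the antibodies (difference of log2 fold changes 2.61, adjusted p = 0.0218). Ttl, tubulin tyrosine ligase, was at 6.66 ± 1.16 CPM in CD8 and 0 in each Treg library after isotype, and at a mean of 4.13 and 5.18 CPM after the antibodies (adjusted p = 0.0218). For Serpine2, at 0 in each isotype Treg library and at a mean of 10.6 CPM in the antibody Treg libraries, the difference did not pass (adjusted p = 0.109).

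**Figure D5:**
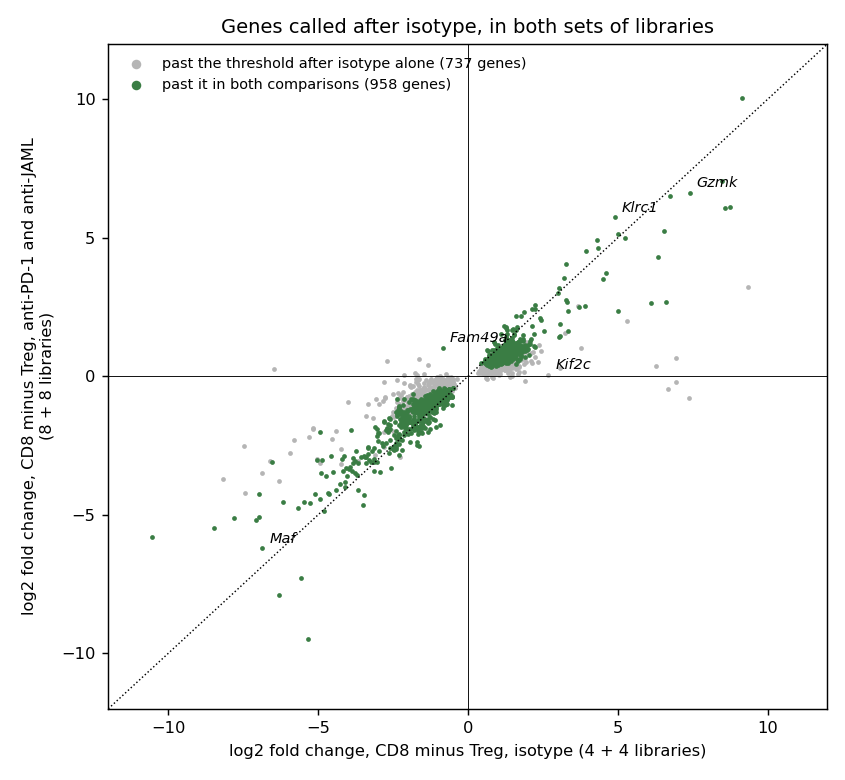
log2 fold change (CD8 minus Treg) after isotype on the horizontal axis and after anti-PD-1 or anti-JAML on the vertical axis, for 1695 of the 1791 genes found after isotype. The 96 genes with a group at 0 in either set, or not tested in the second, are left out, and the dotted line marks equal values. Points lie in the lower left and upper right of the plot with few exceptions, and Kif2c lies near 0 on the vertical axis.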

How the data were processed

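Per the submitters' processing notes, the tools were STAR 2.7.3a, fastp 0.20.1, deepTools 3.3.1 and SAMtools, with build mm10. Counting program, annotation and strand setting: not given in the sources used here. The authors deposited raw read counts for 54957 gene rows and a second table in TPM, and every row names a gene. Genes passing edgeR's filterByExpr (minimum count 10, total 15) in the 8 libraries were fitted with edgeR 4.0.16 in R 4.3.3 (trimmed-mean scaling, robust quasi-likelihood F test, Benjamini-Hochberg threshold 0.05), after the code was tested on simulated data. There 2 and 6 of 50 genes each were called in the right direction at log2 fold changes of 1 and -1. At 2 and -2 these were 20 and 18 of 50, and 1 unchanged gene was called. The simulation changed a smaller share of genes than was called in the data, and only among genes with more counts. It also gave both groups the same spread, although the Treg libraries varied more than the CD8 libraries. Its rates are thus not those of this comparison, and genes that did not pass may still differ 2-fold or more. Alternatives used DESeq2 1.42.0 and limma 3.58.1. TPM was used for levels across genes alone. The gene members and lists were chosen with earlier results of these data known. Genes were named by a rule: fixed identity and target genes, the 15 smallest p and, among genes over 4-fold, the 8 highest levels in each direction, and up to 8 genes called per list. Other genes named as called were chosen after their values were seen. Predicted and clone-named genes were left out. Gene positions came from GENCODE M21, which matched 98.64% of the identifiers, and promoters from RefSeq. Read counts without molecular identifiers are not independent molecules, so limits cover counting error only.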

Additional observations from a re-analysis of the deposited data

Results flagged for a closer look

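Among 162 groups of 4 values (genes shown by library, library measures and summed markers), 13 held a library far from the other 3 by Dixon's test at 95%, where chance gives about 1 in 20, here about 8. In Treg library 4 these were Foxp3 (96.6 CPM, others 56.0 to 62.6), Jaml (0.75 CPM, others 0), Klrk1 (5.001 CPM, others 0) and summed erythroid markers (1.00 CPM, others 0). Treg library 3 stood apart for Gzmk (7.46 CPM, others 0 to 0.188) and Cdk1 (81.7 CPM, others 100 to 104), and Treg library 1 for the effective number of Trav segments (22.8, others 27.02 to 27.9). CD8 library 3 stood apart for Jaml (20.3 CPM, others 5.90 to 7.55), Tnfrsf4 (550.1 CPM, others 495 to 504), Tnfrsf18 (269 CPM, others 188 to 202) and summed erythroid markers (257 CPM, others 0 to 0.0800). CD8 library 2 stood apart for H2-K1 (3521 CPM, others 3043 to 3091) and for the 1 Areg count (0.0801 CPM, others 0). Where the other 3 values are all 0, the test flags any value above 0, so the chance rate does not apply. This holds for Jaml, Klrk1 and the erythroid markers in Treg library 4 and for Areg in CD8 library 2.

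The CD8 minus Treg difference was not the same after isotype as after the antibodies for Kif2c (difference of log2 fold changes 2.61) and Ttl (10.1, a fitted value that depends on the prior count since Ttl was at 0 in the isotype Treg libraries), both with an edgeR adjusted p of 0.0218.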

How the results depend on the processing

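None of the 1791 genes, where tested, changed direction under any of 11 alternative settings or with any 1 library left out. That outcome was largely fixed in advance. In 951 genes higher in CD8 and 789 higher in Treg the groups did not overlap, and the test against a 2-fold minimum keeps the same fold changes. The count was 3041 (1430 higher in CD8, 1611 in Treg) with DESeq2, 289 (111 and 178) with edgeR's test against a 2-fold minimum, 1115 (653 and 462) with genes detected per library added as a covariate, and, in an alternative chosen after seeing the data, 925 (497 and 428) without Treg libraries 2 and 3. Leaving out 1 library at a time gave 1117 to 2125 genes, 577 to 1247 higher in CD8 and 540 to 878 higher in Treg. Deviations of same-numbered libraries from their group means correlated at -0.01 to 0.05, and those of other pairs at -0.06 to 0.04. With so few cells per library such values cannot settle whether equal numbers share a mouse. A replicate block gave 1075 genes (599 and 476). The split moved with the model and with the scaling. In the main fit 53.5% of calls were higher in CD8, against 61.8% with limma voom (2051 genes), which kept the trimmed-mean scaling. With other scalings it was 50.7% (RLE factors) and 46.9% (library totals, chosen after seeing the data). The median of all genes was -0.06, and 0.17 with limma voom, -0.16 with library totals and 0.11 with the block. The antibody comparison gave 2841 genes with DESeq2 and 1484 to 2466 with 1 library left out. Of 149 genes under the naming rule, 21 lost the call with the block, among them Zbtb7b, Bcl2l11 and Il7r, and 24 with the covariate, among them Spp1. Few cells per library and the spread among Treg libraries limit what low genes can show.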
